A study of Mus musculus with 12 samples.

Results

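The effect of SF3a1 knockdown on the size of the LPS response was measured gene by gene as the interaction of the siRNA treatment with LPS. The interaction is the log2 fold change from LPS in cells with SF3a1 siRNA minus the log2 fold change from LPS in cells with control siRNA, so that a value of -1 means that the fold change with SF3a1 siRNA was smaller by a factor of 2. All 12 RNAseq libraries of the series entered this comparison, as 4 groups of 3 made by crossing control or SF3a1 siRNA with no LPS or LPS. The cells were RAW264.7, an established macrophage line of the BALB/c mouse strain. Each culture was electroporated with a pool of siRNAs against SF3a1 or with a nontargeting pool and, 24 hours later, was left untreated or given 20 ng/ml LPS for 4 hours. Electroporation was therefore common to all 4 groups. The labels do not say whether the 3 replicates were cultured on separate days, and p-values measure the spread between these cultures. The reads of replicate 1 came from 2 sequencing runs in each group.

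TLR4 is the receptor for LPS, an outer membrane molecule of Gram-negative bacteria. Signalling through the adaptor MyD88 activates NF-κB and MAP kinases and induces inflammatory cytokines early, and signalling through the adaptors TRAM and TRIF leads to interferon-β, which acts back on the cell to induce interferon-stimulated genes. SF3a1 is a subunit of SF3a, a part of the U2 snRNP that recognizes the branch point and 3′ splice site of introns.

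Polyadenylated RNA was sequenced, and uniquely mapped reads were counted per gene. Between 12746019 and 41091887 reads per library fell on genes, and replicate 1 was the deepest of every group. Levels are given in CPM, the usual depth-normalized unit, in which a gene's count is set against the TMM-scaled total of its library. Of 38215 genes in the table, 14983 passed edgeR's filter on low counts and were tested. A gene was called when its Benjamini-Hochberg adjusted p in the quasi-likelihood test of edgeR was 0.1 or less. The macrophage marker list was expressed in every library, with a summed level of 9400 to 14400 CPM over its 10 genes and Lyz2 as its most abundant member. The T cell, B cell, neutrophil, fibroblast and epithelial marker lists reached at most 0.193, 0.763, 1.39, 0.447 and 0.242 CPM in sum in any library.

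Sf3a1 (ENSMUSG00000002129), the siRNA target, occupies bases 4160350 to 4182541 of chromosome 11 (mm10). At rest the 3 libraries held 173, 216 and 185 CPM with control siRNA and 27.1, 27.5 and 32.1 CPM with SF3a1 siRNA. With LPS it was 150.0, 194 and 157 CPM with control siRNA and 30.3, 26.7 and 45.0 CPM with SF3a1 siRNA. The siRNAs did not overlap, and all 6 knockdown libraries were the lower ones. The interaction of Sf3a1 itself was 0.43 (standard error 0.27, adjusted p = 0.594 from edgeR), so no difference in knockdown between the LPS conditions was detected. With 1 library left out the value ran from 0.18 to 0.58 and was not called.

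SF3a1 knockdown was accompanied by a smaller LPS response in both directions. Of the 14983 tested genes, 520 (3.47%) were called in the interaction, 290 (1.94%) with a negative and 230 (1.54%) with a positive value. In 478 of these 520 genes (91.9%) the sign was opposite to that of the LPS effect, which is called blunted here: 276 were induced by LPS and less so with SF3a1 siRNA, and 202 were repressed by LPS and less so with SF3a1 siRNA. Only 5 called genes were enhanced, meaning that the interaction had the sign of the LPS effect averaged over both siRNAs. In 37 this averaged LPS effect was not called. That does not mean no response, since opposite effects with the siRNAs cancel in the average. For Gga2 the LPS effect was -1.16 with control siRNA and 0.77 with SF3a1 siRNA. Whether a gene was induced or repressed was taken from this average, which in a balanced design carries no part of the interaction. By it, LPS raised 2293 genes (15.3%) and lowered 2859 (19.1%).

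Samples with the same replicate number deviated together, which set replicate 1 apart more than it told replicate 2 from replicate 3. With the replicate number as a block, 1756 genes were called, 776 (5.18%) negative and 980 (6.54%) positive. Among them were all 520 genes called without the block, with the same sign. Leaving out 1 library gave from 273 genes (without replicate 3 of SF3a1 siRNA without LPS) to 711 genes (without replicate 1 of control siRNA with LPS). Blunted induced genes then numbered 177 to 297 and blunted repressed genes 82 to 352. In simulated libraries fitted without a block, 74% of 4-fold and 9% of 2-fold differences in the response were called, and recovery with the block was not tested. Genes that were not called therefore cannot be taken as unaffected. Reads outside annotated genes were 18.6% ± 0.941 (SD, n = 3) with control siRNA without LPS and 19.0% ± 1.08 with LPS, against 23.2% ± 3.49 and 19.8% ± 1.59 with SF3a1 siRNA, and their part in the interaction was not tested. In bulk RNA, fewer responding cells and a smaller response per cell cannot be told apart.

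A smaller response was also the more frequent sign among all LPS-responsive genes, called or not. Among the 909 genes that LPS induced at least 2-fold by the average and that had more than 3 counts in every group, 800 (88.0%) had a negative interaction, with a median of -1.05. Of the 635 of them that were neither called nor kept, 541 (85.2%) had a negative interaction. Among the 715 genes repressed at least 2-fold, 626 (87.6%) had a positive interaction, with a median of 0.84. Over all 14808 genes with more than 3 counts in every group the interaction was negative in 45.7%, and its median was 0.05. The median LPS effect of the induced genes was 2.35 on the log2 scale with control siRNA and 1.45 with SF3a1 siRNA. For the repressed genes it was -1.75 and -0.99. The number of genes called for LPS itself was lower with SF3a1 siRNA. With control siRNA, LPS raised 2061 genes (13.8%) and lowered 2748 (18.3%), and with SF3a1 siRNA it raised 989 (6.60%) and lowered 609 (4.06%). These are counts at a threshold, and the test of the difference is the interaction.

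**Figure D1:**
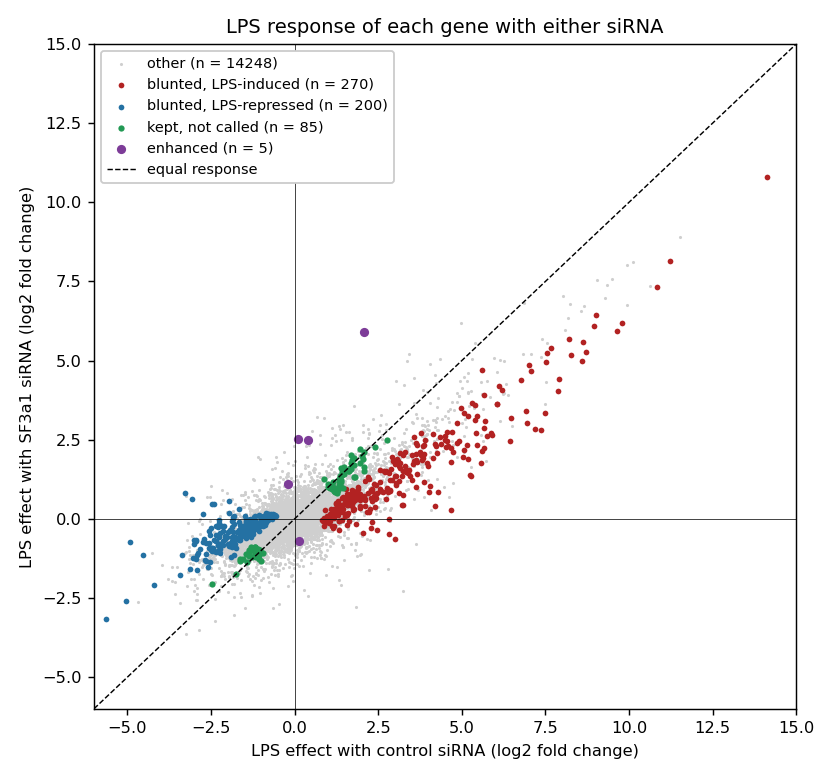
LPS effect of each gene with control siRNA (horizontal axis) and with SF3a1 siRNA (vertical axis), both as log2 fold changes over 3 libraries against 3, for the 14808 genes with more than 3 counts in every group. Red and blue points are blunted genes, most of which lie between the dashed line of equal response and the line of no effect with SF3a1 siRNA, and the 5 enhanced genes are purple; of the 86 kept genes, the 1 that was also called is drawn as blunted.

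The median interaction was larger for larger LPS responses up to a rise of 8 on the log2 scale. For genes that were induced 2 to 4-fold by the average, the median LPS effect was 1.75 with control siRNA and 0.97 with SF3a1 siRNA, and 82 of 496 were called. For genes induced 4 to 16-fold the medians were 3.40 and 2.07, and 92 of 293 were called. For genes with an average rise of 4 to 8 on the log2 scale they were 5.86 and 4.06, and 43 of 108 were called. Above that, 3 of 12 genes were called and no median was taken. The repressed genes were in the same order, with a median interaction of 0.78 for the 635 genes repressed 2 to 4-fold and 1.28 for the 79 genes repressed 4 to 16-fold.

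Blunted genes differed in where the difference between the siRNAs lay, at rest or after LPS. These values share their libraries with the interaction and are its parts, so they are given as a description. Over all tested genes, SF3a1 siRNA raised 2058 (13.7%) and lowered 3011 (20.1%) without LPS, and raised 2755 (18.4%) and lowered 3063 (20.4%) with LPS. Of the 270 blunted induced genes with more than 3 counts in every group, 217 were lower with SF3a1 siRNA after LPS and 113 were already higher with SF3a1 siRNA at rest, with 60 in both counts. For 53 of them the higher level at rest was called and no lower level after LPS. In 81 of the 270 no LPS effect was called with SF3a1 siRNA. Of the 200 blunted repressed genes, 105 were lower with SF3a1 siRNA at rest, 136 were higher after LPS and 41 were both, and in 141 no LPS effect was called with SF3a1 siRNA.

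Nfkbiz (chromosome 16, 55811375 to 55838899), which encodes the NF-κB cofactor IκBζ, had the smallest interaction p among NF-κB target genes and differed in both conditions. At rest its level was 7.11, 7.64 and 5.83 CPM with control siRNA and 15.9, 17.5 and 15.7 CPM with SF3a1 siRNA. After LPS it was 216, 280 and 252 CPM with control siRNA and 47.5, 66.4 and 68.2 CPM with SF3a1 siRNA. The groups did not overlap in either condition, and SF3a1 siRNA libraries were the higher ones at rest and the lower ones after LPS. LPS raised Nfkbiz 36.3-fold with control siRNA and 3.71-fold with SF3a1 siRNA, an interaction of -3.29 (standard error 0.25, adjusted p = 0.000127 from edgeR).

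Ptgs2 (chromosome 1, 150100031 to 150108227), which encodes the prostaglandin synthase COX-2, was blunted by its level at rest. That level was 26.9, 35.8 and 26.7 CPM with control siRNA and 318, 216 and 275 CPM with SF3a1 siRNA. After LPS the libraries overlapped, at 1159, 908 and 946 CPM with control siRNA and 1205, 1079 and 1382 CPM with SF3a1 siRNA, although the latter was higher at each of the 3 replicate numbers. The interaction was -2.90 (standard error 0.26, adjusted p = 0.000397), while the level after LPS differed by 0.28 on the log2 scale (adjusted p = 0.27). Cd80, a costimulatory ligand for T cells, was at 0.894, 1.34 and 2.04 CPM at rest with control siRNA and at 20.8, 26.2 and 18.4 CPM with SF3a1 siRNA. After LPS it was at 27.2, 19.6 and 21.9 CPM and at 43.6, 48.4 and 41.4 CPM, so that SF3a1 siRNA libraries were higher in both conditions and the LPS response was nonetheless smaller (interaction -3.01, standard error 0.36, adjusted p = 0.00189). Lif, a cytokine of the IL-6 family, and Myc, a transcription factor, had the same order of groups. SF3a1 siRNA raised Lif by 3.70 and Myc by 2.71 at rest on the log2 scale, and after LPS the differences were 0.09 and 0.41 and were not called (adjusted p = 0.91 and 0.25).

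Tap1 (chromosome 17, 34187553 to 34197225), a peptide transporter of antigen presentation that is induced by interferon, differed mainly after LPS. Its levels at rest were 30.7, 31.6 and 23.1 CPM with control siRNA and 37.8, 44.4 and 39.5 CPM with SF3a1 siRNA. After LPS they were 444, 401 and 403 CPM with control siRNA and 110.5, 72.3 and 87.1 CPM with SF3a1 siRNA, with an interaction of -2.72 (standard error 0.25, adjusted p = 0.000397). Fcgr1 (chromosome 3, 96282909 to 96293969), a high-affinity IgG receptor used as a macrophage marker, showed no LPS response with SF3a1 siRNA that could be seen in its levels. It was at 51.3, 73.8 and 67.4 CPM at rest and 565, 382 and 421 CPM after LPS with control siRNA. With SF3a1 siRNA it was at 37.6, 56.5 and 54.2 CPM at rest and 52.5, 39.8 and 56.1 CPM after LPS. These last 2 groups overlapped, and the interaction was -2.83 (standard error 0.31, adjusted p = 0.00149).

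**Figure D2:**
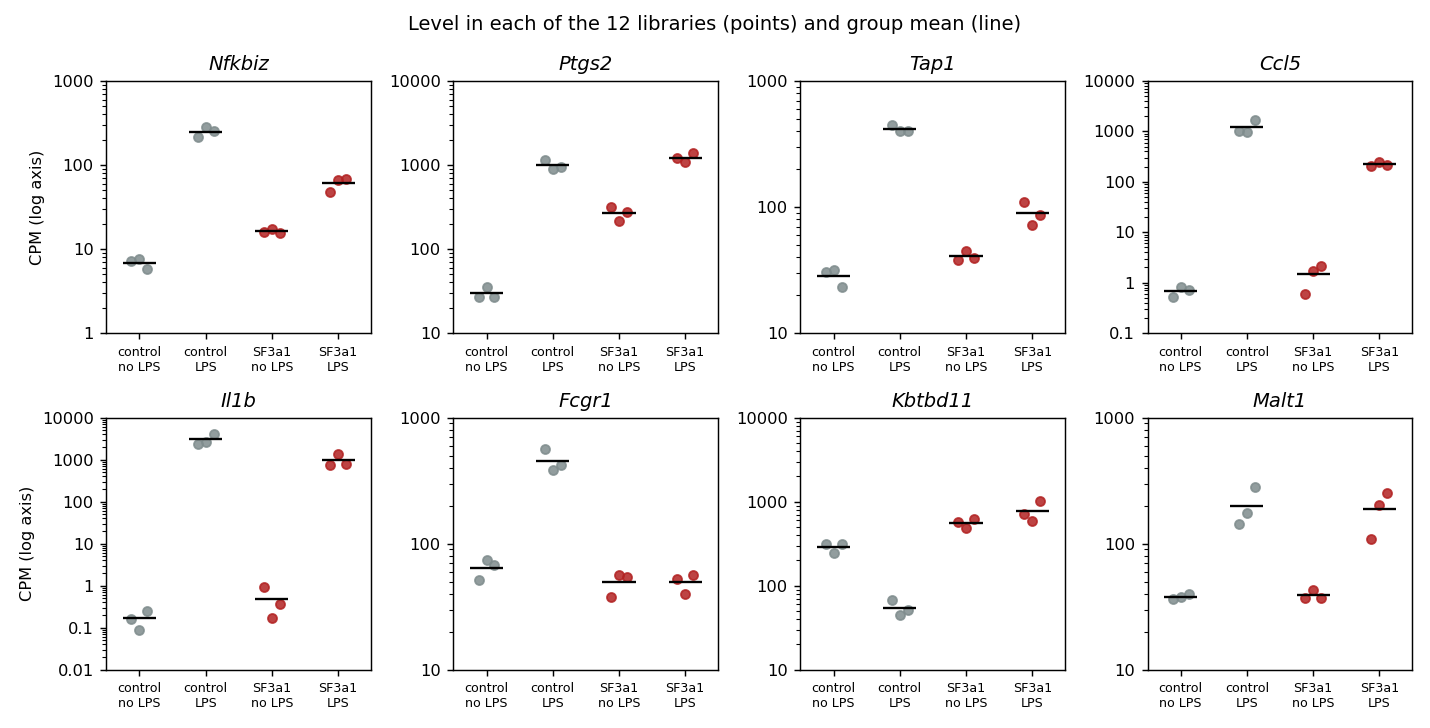
Level in CPM (log axis) of 8 genes in each library (points) with the mean of the 3 libraries (line), grey for control and red for SF3a1 siRNA. Ptgs2 differs between the siRNAs at rest and overlaps after LPS, Tap1 and Fcgr1 are separated mainly after LPS, Kbtbd11 falls with control siRNA only, and Malt1 overlaps between the siRNAs in both conditions.

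The 12 most negative interactions among called genes of at least 10 CPM, a choice made on the interaction itself, ran from -4.34 to -3.31. They were Tnc (tenascin C, a matrix glycoprotein), the chemokines Cxcl11, Cxcl2 and Ccl5, the Fc receptor Fcgr4, the cytokines Il27, Lif and Il1b, the death receptor Fas, the gelatinase Mmp9, the adaptor Scimp and the interferon-induced GTPase Gbp3. All 12 were blunted induced genes. Tnc was at 7.38, 5.23 and 3.75 CPM at rest and 828, 931 and 658 CPM after LPS with control siRNA. In SF3a1 siRNA cells it was at 40.3, 22.1 and 16.5 CPM at rest and 239, 136 and 196 CPM after LPS, so that the groups were apart in both conditions. Its interaction was -4.34 (standard error 0.48, adjusted p = 0.00149).

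Ccl5, a chemokine for T cells and monocytes, was at 0.527, 0.804 and 0.724 CPM at rest and 1019, 976 and 1703 CPM after LPS with control siRNA. With SF3a1 siRNA it was at 0.583, 1.67 and 2.16 CPM at rest, which overlapped control siRNA, and at 208, 245 and 213 CPM after LPS, below every control library. Il1b, the proinflammatory cytokine IL-1β, was below 1 CPM in all 6 libraries at rest. After LPS it was at 2389, 2659 and 4202 CPM with control siRNA and at 762, 1380 and 776 CPM with SF3a1 siRNA, again without overlap. The interaction was -3.51 for Ccl5 (standard error 0.53, adjusted p = 0.00632) and -3.31 for Il1b (standard error 0.75, adjusted p = 0.0413). For genes this low at rest the fold change rests on few counts there. With 1 library left out, the calls of Cxcl11, Cxcl2 and Mmp9 were each lost in 6 of 12 omissions, that of Il27 in 8, that of Il1b in 3 and that of Gbp3 in 1. Their adjusted p-values reached 0.296, 0.133, 0.145, 0.196, 0.314 and 0.113. Without replicate 1 of SF3a1 siRNA without LPS, the interaction was -2.88 for Cxcl11, -2.07 for Cxcl2, -2.26 for Il1b and -2.96 for Gbp3. Without replicate 1 of control siRNA with LPS, it was -2.76 for Mmp9.

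The 12 most positive interactions by the same choice ran from 2.90 to 1.95, and all belonged to genes that LPS repressed. Kbtbd11 (chromosome 8, 15011025 to 15033333), a Kelch domain protein, was at 312, 244 and 316 CPM at rest and 67.3, 45.3 and 50.9 CPM after LPS with control siRNA. In the knockdown cells it was at 567, 486 and 618 CPM at rest and 719, 586 and 1032 CPM after LPS. LPS thus lowered it in all 3 replicate numbers with control siRNA and in none with SF3a1 siRNA, and the interaction was 2.90 (standard error 0.31, adjusted p = 0.00149). The uncharacterized 1700025G04Rik had the same order, with 59.6, 51.5 and 64.1 CPM falling to 12.3, 13.3 and 19.2 CPM with control siRNA and 84.9, 66.9 and 93.1 CPM against 128, 82.3 and 154 CPM with SF3a1 siRNA. Its interaction was 2.55 (standard error 0.34, adjusted p = 0.0034).

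Others of these 12 have known roles in transcription, signalling and transport. Rarb is a retinoic acid receptor, Tfeb the transcription factor of lysosomal genes, Id2 an inhibitor of helix-loop-helix factors, Zfpm1 a cofactor of GATA factors, Bmf a proapoptotic BH3-only protein, Sesn1 a stress protein, Slc5a3 a myo-inositol transporter, St6gal1 a sialyltransferase and Angpt2 a ligand of the receptor TIE2. Tfeb was at 46.0, 35.5 and 35.0 CPM at rest and 10.6, 6.20 and 8.92 CPM after LPS with control siRNA, and at 38, 34.3 and 30.6 CPM and 25.7, 33.1 and 29.9 CPM with SF3a1 siRNA. At rest the siRNAs overlapped, and after LPS every SF3a1 siRNA library was higher (interaction 1.95, standard error 0.28, adjusted p = 0.00521). Ccne2, the cyclin E2 of the G1 to S transition, was at 51.3, 64.2 and 63.8 CPM at rest with control siRNA, but at 23.3, 14.9 and 16.3 CPM with SF3a1 siRNA. After LPS it was at 14.0, 8.35 and 7.63 CPM and at 18.3, 9.55 and 13.8 CPM, where the siRNAs overlapped and SF3a1 siRNA was the higher one at all 3 replicate numbers. Its interaction of 2.18 (standard error 0.40, adjusted p = 0.017) thus came with a low level in SF3a1 siRNA libraries before LPS. The call of Bmf was lost in 5 and that of Angpt2 in 2 of the 12 omissions of a library, with adjusted p-values of up to 0.136 and 0.113.

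**Figure D3:**
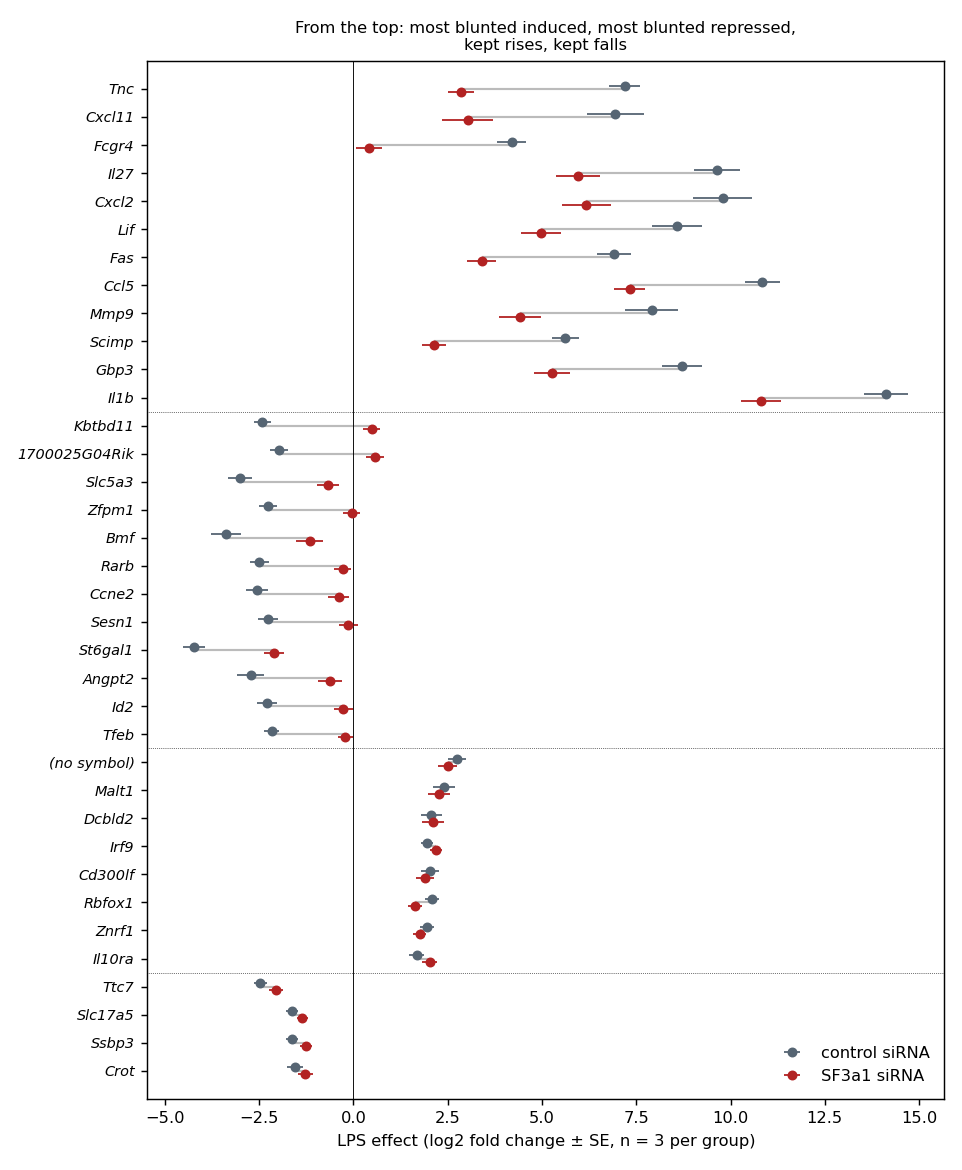
LPS effect (log2 fold change with standard error, 3 libraries per group) with control siRNA (grey) and SF3a1 siRNA (red) for the 12 most negative and 12 most positive interactions and for 12 kept genes. In the upper 24 genes, which were chosen by the interaction, the red point lies nearer to or across the line of no effect, and in the kept genes the points lie close together.

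NF-κB target genes, interferon-stimulated genes and cytokines were read against the background of 1.94% of tested genes called negative. Most of their members were induced by LPS, and LPS-induced genes in general were called more often than this, in either direction 31.4% of those induced 4 to 16-fold and 39.8% of those with an average rise of 4 to 8 on the log2 scale, with median interactions of -1.27 and -1.96. The counts of these lists are therefore not read as particular to them. Of 42 tested NF-κB target genes, 12 were called negative and 0 positive (27 and 0 with the replicate block), and the median interaction of the 40 with more than 3 counts in every group was -1.09, against 0.05 over all genes. All 40 of these had a negative value. LPS raised 40 of the 42 with either siRNA. Besides Nfkbiz and Ptgs2, the smallest p-values were those of Bcl2l1, an antiapoptotic protein (interaction -1.64, adjusted p = 0.00372), and Ccl3, the chemokine MIP-1α (-2.63, adjusted p = 0.00376). Nfkbia, the inhibitor IκBα, had an interaction of -1.21 (adjusted p = 0.0348). In the control siRNA group it averaged 90.7 CPM at rest (SD 10.2, n = 3) and 589.7 CPM after LPS (SD 66.2), against 190.0 CPM (SD 19.9) and 534 CPM (SD 137) in the SF3a1 siRNA group.

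Of 61 tested interferon-stimulated genes, 28 were called negative and 0 positive (47 and 0 with the block), with a median interaction of -1.47. LPS raised 61 with control siRNA and 60 with SF3a1 siRNA, at median log2 changes of 4.86 and 3.5. After Tap1, the smallest p-values belonged to Daxx, a histone chaperone (-1.82, adjusted p = 0.000423), Nlrc5, an activator of MHC class I genes (-2.31, adjusted p = 0.00372), and Ifi47, an interferon-induced GTPase (-2.40, adjusted p = 0.00632). Cxcl10, a chemokine for T cells, was at 1175, 2183 and 2350 CPM after LPS with control siRNA and at 56.7, 220.3 and 196 CPM with SF3a1 siRNA, without overlap (interaction -2.57, standard error 0.68, adjusted p = 0.0827). That call was lost in 8 of the 12 omissions of a library.

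Without LPS, SF3a1 siRNA raised 20 and lowered 3 of the 42 NF-κB target genes, against 13.7% raised and 20.1% lowered of all tested genes, with a median log2 difference of 0.64. It raised 5 and lowered 16 of the 61 interferon-stimulated genes, which lies near those shares, with a median of -0.50. With LPS it lowered 20 of the 42 and 58 of the 61, against 20.4% of all tested genes, with medians of -0.47 and -2.05. The difference between the lists was not tested, and the lists share genes and libraries.

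**Figure D4:**
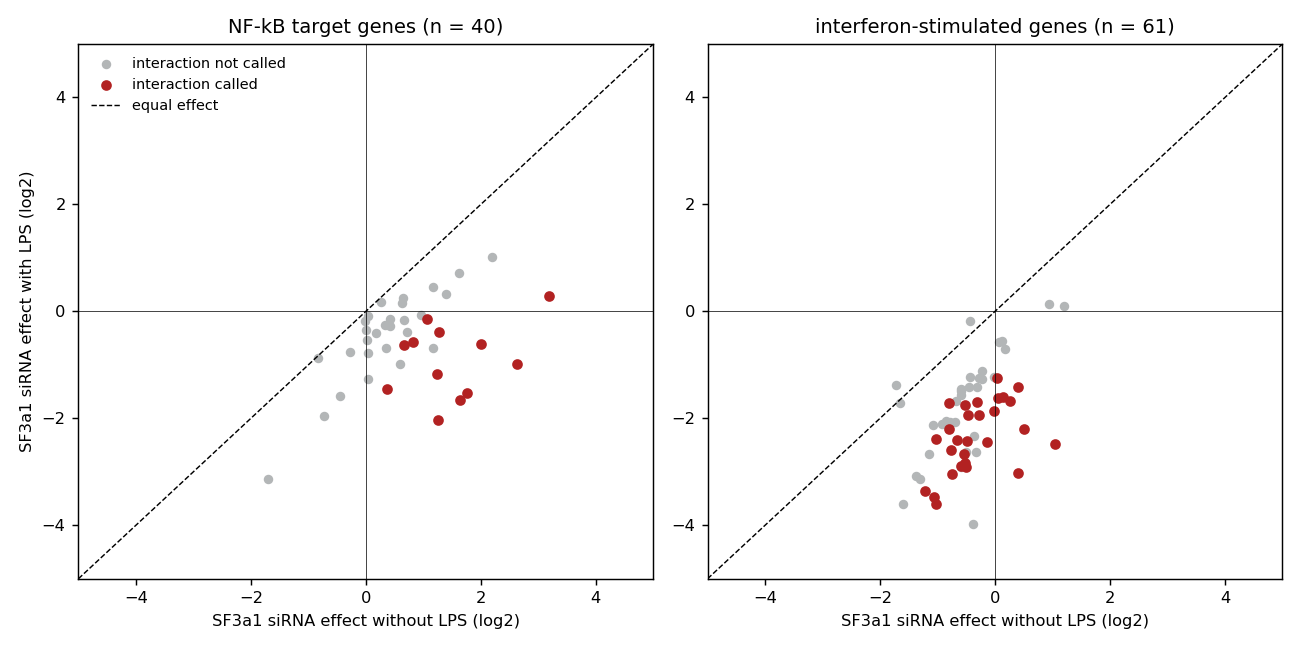
SF3a1 siRNA effect without LPS (horizontal axis) and with LPS (vertical axis), as log2 differences between 3 libraries and 3, for 40 NF-κB target genes and 61 interferon-stimulated genes with more than 3 counts in every group. Points below the dashed line have a negative interaction; many NF-κB target genes lie to the right of 0 and most interferon-stimulated genes well below 0.

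For the NF-κB and interferon groups, the letters of promoters are shown for 5 blunted genes that were in the RefSeq promoter table of GRCm38.p6 and held a match. The 200 bases before the start were searched on both strands for GAAANNGAA, which resembles the interferon-stimulated response element, and GGGANNTTC, which resembles an NF-κB site. Of the 32851 promoters in the table, 5.57% held the first and 2.59% the second in this window. Matches are in capitals. The matches of Gbp3 (chr3:142559844-142560043, forward strand) overlap each other, as do those of Cxcl2 (chr5:90903699-90903898, forward strand). The first 2 sequences hold GAAANNGAA, the next 2 GGGANNTTC, and the last both.
Gbp3: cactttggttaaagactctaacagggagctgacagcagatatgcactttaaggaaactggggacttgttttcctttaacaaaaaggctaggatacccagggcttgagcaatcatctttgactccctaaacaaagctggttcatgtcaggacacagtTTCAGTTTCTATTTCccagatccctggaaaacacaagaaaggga
Trim30a (chr7:104465194-104465393, reverse strand): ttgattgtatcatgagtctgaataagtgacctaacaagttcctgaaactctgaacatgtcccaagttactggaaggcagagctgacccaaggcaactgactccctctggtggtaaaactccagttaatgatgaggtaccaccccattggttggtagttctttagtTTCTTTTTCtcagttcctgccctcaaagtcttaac
Cxcl2: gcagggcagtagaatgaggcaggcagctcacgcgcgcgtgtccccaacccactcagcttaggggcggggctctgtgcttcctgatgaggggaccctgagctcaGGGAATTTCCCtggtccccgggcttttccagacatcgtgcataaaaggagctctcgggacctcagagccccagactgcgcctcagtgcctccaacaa
Cxcl10 (chr5:92348890-92349089, reverse strand): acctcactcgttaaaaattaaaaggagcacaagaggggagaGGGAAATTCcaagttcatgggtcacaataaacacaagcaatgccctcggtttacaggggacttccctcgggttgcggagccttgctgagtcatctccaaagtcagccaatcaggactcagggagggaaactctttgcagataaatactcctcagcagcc
Nfkbia (chr12:55492648-55492847, reverse strand): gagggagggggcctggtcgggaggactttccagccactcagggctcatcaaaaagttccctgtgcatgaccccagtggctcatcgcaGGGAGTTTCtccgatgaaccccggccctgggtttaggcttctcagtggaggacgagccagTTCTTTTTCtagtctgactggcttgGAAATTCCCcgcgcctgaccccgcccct

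A match is a run of letters and no measure of binding. Among the other named genes, the blunted Ccl3, an NF-κB target gene, and Fcgr4 held GAAANNGAA and no GGGANNTTC. The kept genes Cd300lf and Rbfox1 also held GAAANNGAA, and the kept gene Ttc7 held GGGANNTTC, so matches were found in both classes. Promoters were at hand for 73.6% of blunted induced, 73.8% of blunted repressed and 61.5% of all tested genes, so a comparison of motif shares between the classes would be void and none is given. The annotated transcript with most exons had a median of 7 exons in blunted induced genes and 8 in blunted repressed genes, against 7 over all tested genes with an annotation, which include noncoding RNAs. Genes with a single exon made up 2.56% of the blunted induced and 2.99% of the blunted repressed genes, against 20.9% of all tested genes, and 7.41% of the kept induced and 3.33% of the kept repressed genes, so a low share was not particular to blunted genes. The lower quartiles of the blunted classes and of all tested genes were 4, 5 and 2 exons. Kept induced genes had a median of 8 exons and the 30 kept repressed genes with an annotation one of 16. These are descriptions, and no test of exon number was made.

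Of 38 tested cytokines and chemokines, 18 were called negative and 0 positive (23 and 1 with the block). The median interaction of the 28 with more than 3 counts in every group was -2.60, which leaves out 10 members, with median LPS effects of 5.53 with control siRNA and 3.06 with SF3a1 siRNA. Ccl4, the chemokine MIP-1β, had an interaction of -3.30 (standard error 0.59, adjusted p = 0.015), and Il15, a growth factor of T and NK cells, -2.90 (standard error 0.42, adjusted p = 0.00498). Tnf, a first cytokine of the LPS response, was at 671, 1873 and 1804 CPM after LPS with control siRNA and at 424, 1391 and 898 CPM with SF3a1 siRNA. The siRNAs overlapped there, replicate 1 being the lowest with each, but SF3a1 siRNA was the lower one at all 3 replicate numbers, and the interaction of -1.85 (standard error 0.58) was not called (adjusted p = 0.146) but passed with the replicate block (adjusted p = 0.0475). Il10, an anti-inflammatory cytokine, had an interaction of -2.23 (adjusted p = 0.408, and 0.0701 with the block). Without the block, its value was -1.365 when replicate 1 of control siRNA with LPS was left out. Nos2, the inducible nitric oxide synthase, was at 333, 365 and 330.2 CPM after LPS with control siRNA and 48.3, 40.2 and 43.5 CPM with SF3a1 siRNA. These groups were far apart, but at rest the gene was below 0.2 CPM in all 6 libraries, and its interaction of -2.62 (standard error 0.87) was not called (adjusted p = 0.173).

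Other LPS-induced genes had no usable fold because a group at rest had 3 counts or fewer, and they are given by their levels after LPS. Il6 was at 24.6, 11 and 27.4 CPM with control siRNA and 1.27, 1.33 and 2.17 CPM with SF3a1 siRNA, and Ifnb1, interferon-β, at 4.92, 27.5 and 26 CPM and 0.636, 5.02 and 3.66 CPM. Il6 did not overlap between the siRNAs, and Ifnb1 overlapped through replicate 1 of control siRNA. Il1a was at 634, 804 and 1405 CPM and at 161, 422 and 277 CPM, without overlap. Csf3, the growth factor G-CSF, overlapped at 447, 162 and 124 CPM and 161, 88.1 and 45.6 CPM. Between libraries of the same replicate number, Csf3 and Ifnb1 were lower with SF3a1 siRNA in 3 of 3 pairs. Timp1, an inhibitor of matrix metalloproteinases, was at 60.5, 60.5 and 57.8 CPM and at 15.8, 16 and 8.42 CPM, without overlap. Of Mmp14, Slc7a2 and Lcn2, the mean levels after LPS were 46.6, 39.8 and 52.5 CPM with control siRNA and 21.7, 27.4 and 8.31 CPM with SF3a1 siRNA.

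Of 36 tested negative feedback regulators of the LPS response, 10 were called negative and 0 positive (20 and 1 with the block). The shares over all tested genes were 1.94% and 1.54% (5.18% and 6.54% with the block). The median interaction of the list was -1.21, and 3 members were kept. LPS raised 25 of the 36 with control siRNA. Of all genes induced 2 to 4-fold and 4 to 16-fold by the average, 16.5% and 31.4% were called. The 10 calls are therefore not read as particular to these regulators. The called genes included Socs3, an inhibitor of cytokine receptor signalling (-1.74, standard error 0.31, adjusted p = 0.0163), Dusp2, a MAP kinase phosphatase (-1.64, standard error 0.22, adjusted p = 0.00372), Rnf19b, a ubiquitin ligase (-1.40, standard error 0.18, adjusted p = 0.00271), and Trim30a (-1.84, standard error 0.32, adjusted p = 0.0131), whose counts are uncertain because near-identical Trim30 copies exist. Tnfaip3, the ubiquitin-editing enzyme A20, had a value of -1.02 and was not called (adjusted p = 0.28). Immediate early and AP-1 genes gave 10 negative and 0 positive calls of 37 (21 and 0 with the block), with a median of -0.87. The shares over all tested genes were again 1.94% and 1.54% (5.18% and 6.54% with the block). LPS raised 26 of the 37 with control siRNA, and of all genes induced 2 to 4-fold 16.5% were called. The difference between the list and such genes was not tested. The smallest p-values were those of the transcription factors Cebpd (-1.87, adjusted p = 0.00245), Myc (-2.30, adjusted p = 0.00853), Mafk (-1.36, adjusted p = 0.0111) and Klf7 (-1.77, adjusted p = 0.0134). Macrophage effector enzymes and surface proteins gave 12 negative and 0 positive of 41 (18 and 0 with the block), against 1.94% and 1.54% of all tested genes. LPS raised 40 of the 41 with control siRNA, and of all genes induced 4 to 16-fold 31.4% were called. This count is therefore not read as particular to the list. The median of the 34 members with more than 3 counts in every group was -1.14, with Casp4, the sensor caspase of intracellular LPS, at -1.83 (adjusted p = 0.0111).

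For the TLR4 signalling components the number of calls depended on the fit. Of 48 tested, 2 were called negative and 1 positive without the block, against 1.94% and 1.54% of all tested genes, and the median was -0.07. With the block 12 were called negative and 3 positive, against 5.18% and 6.54% of all tested genes. DESeq2 called 8 negative and 1 positive, against 541 and 425 over all genes. Over all 14983 tested genes, 1968 had an unadjusted p under 0.05, against 13 of the list. The genes called without the block were Irak2, a kinase of the MyD88 complex (-0.85, standard error 0.24, adjusted p = 0.0971), Pik3ap1, the adaptor BCAP (-1.45, standard error 0.34, adjusted p = 0.0462), and Ticam2, the adaptor TRAM (1.06, standard error 0.26, adjusted p = 0.0584). With 1 library left out, the call of Irak2 was lost in 10 of 12 omissions, that of Pik3ap1 in 4 and that of Ticam2 in 8, with adjusted p-values of up to 0.203, 0.118 and 0.179. Ticam2 was at 17.7, 17.5 and 18.5 CPM at rest and 10.7, 10.8 and 14.4 CPM after LPS with control siRNA. With SF3a1 siRNA it was at 6.34, 7.52 and 6.92 CPM at rest, below every control library, and at 8.12, 9.97 and 10.8 CPM after LPS.

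Several core components were not called. The interaction of the receptor gene Tlr4 was -0.22 (standard error 0.44), of Irak1 -0.02 (0.24), of the IκB kinase gene Ikbkb -0.32 (0.19), and of Rab7b, a negative regulator of TLR4, 0.15 (0.38), with adjusted p-values of 0.939, 0.993, 0.567 and 0.956. No interaction was detected for these 4 genes, which does not show that there is none. Cd14, the coreceptor of TLR4, had -0.97 (standard error 0.34, adjusted p = 0.205) and Myd88 -0.77 (standard error 0.25, adjusted p = 0.156). Both passed with the replicate block (adjusted p = 0.0115 and 0.0113), as did the kinase gene Ikbke (-1.24, adjusted p = 0.113 and 0.0345).

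**Figure D5:**
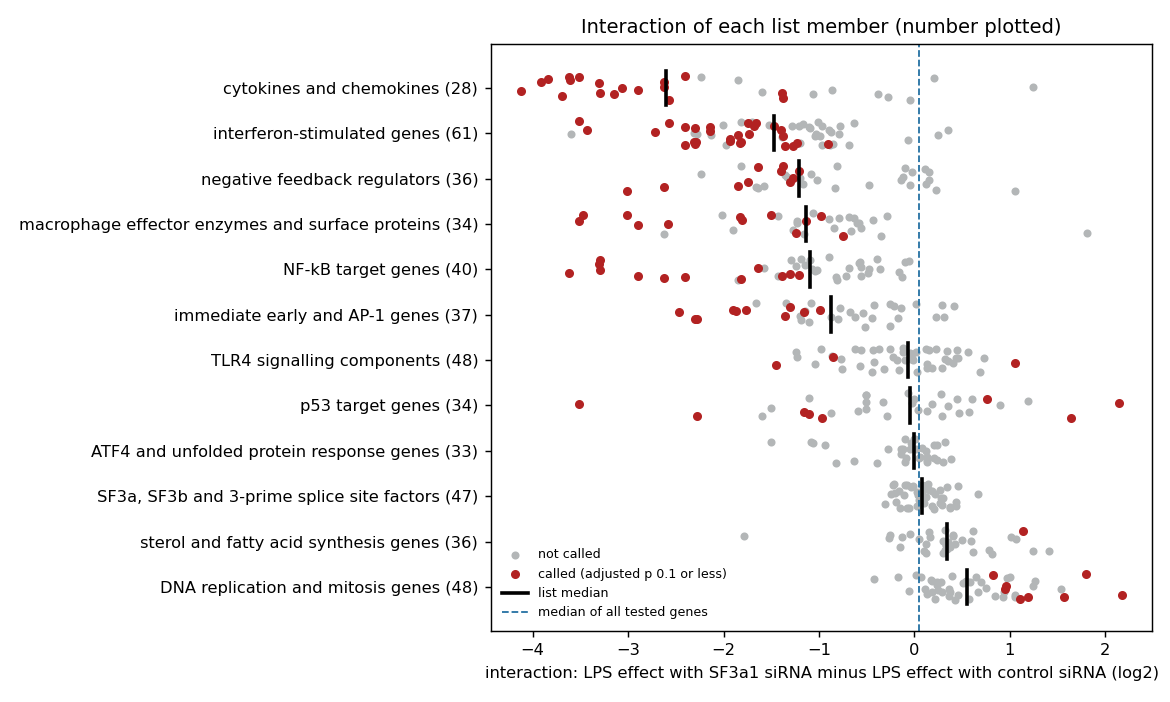
Interaction (log2) of each tested member with more than 3 counts in every group for 12 gene lists, with called genes in red, the list median as a black bar and the median of all tested genes as a dashed line. The medians of the NF-κB, interferon and cytokine lists lie to the left of the dashed line, with cytokines and chemokines at -2.60, and that of DNA replication and mitosis genes lies to the right of it at 0.55.

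Calls among DNA replication and mitosis genes were all positive. Of 48 tested, 8 were called positive against a background of 1.54%, and 0 negative (18 and 0 with the block), with a median interaction of 0.55. Genes repressed 2 to 4-fold by the average were called in 13.5%, with a median of 0.78, and the difference between the list and these genes was not tested. LPS lowered 43 of them with control siRNA and 7 with SF3a1 siRNA, where the share over all tested genes also fell, from 18.3% to 4.06%. SF3a1 siRNA lowered 46 without LPS and 31 with LPS, against 20.1% and 20.4% of all tested genes. E2f2, a transcription factor of the cell cycle, was at 98.2, 94.4 and 81.0 CPM at rest and 15.9, 8.98 and 8.36 CPM after LPS with control siRNA. After knockdown it was at 42.3, 50.6 and 43.0 CPM at rest and 23.7, 16.7 and 17.3 CPM after LPS, lower at rest and higher after LPS than every control library (interaction 1.79, standard error 0.33, adjusted p = 0.017). Mcm4, a subunit of the replicative helicase, and Pcna, the sliding clamp, had interactions of 1.11 and 0.95 (adjusted p = 0.0232 and 0.0249).

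p53 target genes had calls in both directions, 5 negative and 3 positive of 34 (9 and 3 with the block), against 1.94% and 1.54% of all tested genes, with a median of -0.05. SF3a1 siRNA raised 22 of them at rest and 23 with LPS, against 13.7% and 18.4% of all tested genes. Cdkn1a, the cyclin-dependent kinase inhibitor p21, was at 226, 247 and 209 CPM at rest and 607, 785 and 723 CPM after LPS with control siRNA. With SF3a1 siRNA it was at 1389, 1377 and 1222 CPM at rest, above every control library with or without LPS, and at 1943, 2018 and 1779 CPM after LPS (interaction -1.11, standard error 0.19, adjusted p = 0.0134). Gadd45a, a stress protein, had an interaction of -2.28 (adjusted p = 0.0297) at levels below 10 CPM, and Sesn1 one of 2.14 (adjusted p = 0.0122).

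The remaining lists had 0 or 1 calls each without the block. None of the 47 SF3a, SF3b and 3′ splice site factors was called by edgeR (1 positive with the block, and 0 by DESeq2), with a median of 0.08. Only 2 of the 47 had an unadjusted p under 0.05, against 1968 of all 14983 tested genes. The smallest p was that of Phf5a, a subunit of SF3b (0.66, adjusted p = 0.303), followed by those of the SR proteins Srsf1 (0.37, adjusted p = 0.35) and Srsf10 (0.37, adjusted p = 0.462). Sterol and fatty acid synthesis genes gave 1 positive call of 36, the fatty acid elongase Elovl6 (1.14, adjusted p = 0.077, and up to 0.194 with 1 library left out). With the block, 8 positive calls and 1 negative were made, against 6.54% and 5.18% of all tested genes. Scd1 and Acat2 were among the positive calls, and Abca1 was the negative call. None of the 33 ATF4 and unfolded protein response genes was called by edgeR, and 1 was called by DESeq2. An unadjusted p under 0.05 was seen in 4 of the 33, against 1968 of all 14983 tested genes. With the block 3 were called negative, namely Sesn2, Atf3 and Ppp1r15a, against 5.18% of all tested genes. These counts are not read as a change of the list. The cystine transporter gene Slc7a11 had a value of -0.63. Of the 10 macrophage markers, Fcgr1 alone was called, and Csf1r, Itgam and Mertk had values of 0.49, -1.41 and -1.37 (adjusted p = 0.272, 0.29 and 0.492). Csf1r and Itgam passed with the block (adjusted p = 0.0767 and 0.0409). Without the block, the value of Itgam was -0.58 when replicate 1 of control siRNA with LPS was left out. The neutrophil marker S100a8 was the single tested gene of the other marker lists and had -0.14 (adjusted p = 0.992).

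A kept response was read from the interval of the interaction and not from a missing call. For 86 genes, LPS changed the level at least 2-fold by the average and the 95% interval of the interaction lay between -1 and 1. They were 55 induced and 31 repressed genes, and 1 of them was also called. This interval can be met by genes with little spread, and 62 of the 86 had an average LPS effect below 1.5 on the log2 scale. The number of kept genes was 160 with the replicate block, 141 without a filter on low counts and 54 without replicate 3 of control siRNA without LPS. With the limit at 1.5-fold only 6 genes were kept, and 1361 of the 1774 genes that changed at least 2-fold were neither called nor kept. In the 55 kept induced genes the median LPS effect was 1.39 with control siRNA and 1.26 with SF3a1 siRNA.

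Malt1, a paracaspase of NF-κB signalling, was at 36.1, 37.4 and 40.1 CPM at rest and 143, 174 and 280 CPM after LPS with control siRNA, and at 37.0, 43.0 and 37.4 CPM and 109.8, 201 and 253 CPM with SF3a1 siRNA. The siRNAs overlapped in both conditions, and the 95% interval of the interaction ran from -0.99 to 0.73. Irf9, the DNA-binding subunit of the interferon-activated complex ISGF3, was at 156, 152 and 152 CPM after LPS with control siRNA and 144, 130.4 and 130.6 CPM with SF3a1 siRNA, with an interval from -0.22 to 0.71. It was a kept gene within the interferon-stimulated group, in which 28 of 61 were blunted. Il10ra, the receptor chain for IL-10, kept its response at a lower level. At rest it was at 47.0, 29.1 and 39.4 CPM with control siRNA and 11, 13.4 and 8.78 CPM with SF3a1 siRNA, and after LPS at 108.5, 131 and 132 CPM and 41.2, 45.8 and 48.4 CPM, with an interval from -0.26 to 0.93.

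The other kept genes with large rises were Dcbld2, a membrane receptor, Cd300lf, an inhibitory myeloid receptor, Rbfox1, a splicing regulator, Znrf1, a ubiquitin ligase, and ENSMUSG00000048107, which had no symbol in the reference. Among kept falls, Ttc7 was at 186, 178 and 171 CPM at rest and 26.8, 38.4 and 32.2 CPM after LPS with control siRNA, and at 58.9, 42.8 and 42.8 CPM and 12.9, 9.79 and 12.2 CPM with SF3a1 siRNA. SF3a1 siRNA libraries were lower in both conditions, and the interval of the interaction ran from -0.13 to 0.96. Slc17a5, a lysosomal sialic acid transporter, Ssbp3, a DNA-binding protein, and Crot, a peroxisomal carnitine acyltransferase, had intervals from -0.18 to 0.75, -0.08 to 0.82 and -0.34 to 0.90.

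An enhanced response, as defined by the averaged LPS effect, was called in 5 genes, which are named because they are so few. With control siRNA the LPS effect was called for Afap1 only (2.08, adjusted p = 0.0102 from edgeR). It was 0.10 for Slc9a3r2, 0.40 for Plppr2, -0.20 for Ncs1 and 0.13 for Rfx5 (adjusted p = 0.873, 0.55, 0.607 and 0.63). For these genes an LPS effect was called with SF3a1 siRNA only. Ncs1, a neuronal calcium sensor, was at 61.1, 39.7 and 38.1 CPM at rest and 42.9, 42.2 and 36.0 CPM after LPS with control siRNA. In SF3a1 siRNA cells it was at 91.8, 80.9 and 81.0 CPM at rest and 122, 192 and 231 CPM after LPS. Only with SF3a1 siRNA did LPS separate the groups, and the interaction was 1.3 (standard error 0.33, adjusted p = 0.0651). Slc9a3r2, a PDZ scaffold protein, was at 2.04 to 4.84 CPM in the 6 control siRNA libraries and at 5.54, 2.56 and 4.02 CPM with SF3a1 siRNA at rest. Its level after LPS with SF3a1 siRNA was 24.8, 17.9 and 27.6 CPM, above all other libraries (interaction 2.42, standard error 0.47, adjusted p = 0.0232).

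Afap1, an actin filament protein, and Plppr2, a phospholipid phosphatase-related protein, were highest in the same group, at 4.81, 2.90 and 5.34 CPM and 10.9, 7.50 and 9.24 CPM, with interactions of 3.82 and 2.09 (adjusted p = 0.0348 and 0.0934). Afap1 was at 0.0426 to 0.0744 CPM in the 6 libraries without LPS, so its fold changes rest on few counts there. Rfx5, a transcription factor of MHC class II genes, was the only gene of this class with a negative averaged LPS effect. LPS lowered Rfx5 with SF3a1 siRNA (-0.69, adjusted p = 0.0164 from edgeR) and not with control siRNA. With SF3a1 siRNA it was at 52.0, 58.0 and 52.5 CPM at rest and 36.2, 27.4 and 37.0 CPM after LPS, against 27.3 to 36.0 CPM in the control siRNA libraries (interaction -0.82, standard error 0.22, adjusted p = 0.0878). The number of enhanced genes was between 2 and 10 with 1 library left out and 34 with the replicate block.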

How the data were processed

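RNAseq of 12 RAW264.7 cultures in 4 groups of 3, grouped by the sample labels, was analysed. The authors sequenced polyadenylated RNA on the Ion Proton, mapped reads of at least 30 nt to mm10 with GSNAP (per the submitters' processing notes) and deposited unnormalized counts per Ensembl gene made with HTSeq from uniquely mapped reads. Whether counting used the strand is not given in the sources used here, so overlapping genes on opposite strands are uncertain. Of 38215 IDs, 36345 had a symbol in the reference. Reads outside genes stayed out of library sizes and tests, at 17.75 to 27.2% of reads per library, and 0.431 to 0.53% were ambiguous. The 11 deposited tables of exon counts were not used here.

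Counts were fitted in R 4.3.3 with edgeR 4.0.16 (TMM scaling, filterByExpr, quasi-likelihood F test, 1 mean per group, all 12 libraries), and p-values were adjusted over all 14983 tested genes by the Benjamini-Hochberg method. Standard errors are the unshrunk log2 value divided by the square root of F. DESeq2 1.42.0, RLE scaling, no filter on low counts, a replicate block, leaving out each library, and leaving out replicate 1 of every group were tried as alternatives. On simulated counts of 14983 genes with 200 changed interactions (100 of each size), edgeR without a block recovered 9% of 2-fold and 74% of 4-fold differences, with 9.78% false calls. Replicates of a group differed beyond sampling noise (chi-squared per degree of freedom 8.85 to 118 over 12 pairs). Deviations from the group means correlated at 0.139 to 0.568 in the 18 pairs with the same replicate number in their titles, all above 0.1. In the 36 other pairs they correlated at -0.492 to 0.315, and every negative value involved replicate 1. Pairs of a replicate 2 with a replicate 3 were at 0.0395 to 0.315. Same-numbered pairs of replicates 2 and 3 were at 0.139 to 0.429, which overlaps. The correlations thus set replicate 1 apart and hardly show whether numbers 2 and 3 pair samples. For the block, all numbers were taken as pairing the samples. The study's methods name no block, and the fit without one is the one reported, with the blocked values beside it where they differ.

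Genes were named by rule: the 12 most negative and 12 most positive interactions among called genes of at least 10 CPM, more than 3 counts in each group and 1 sign in all 3 replicate numbers; kept genes of at least 10 CPM with the 8 largest rises and 4 largest falls; up to 4 genes of smallest p in each of 18 gene lists (6 of them cell type markers); a fixed set of LPS response genes; and 6 genes with 3 counts or fewer at rest. The lists were written from general knowledge, and members, lists and rules were chosen with earlier results of these data known, so no list is independent evidence.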

Additional observations from a re-analysis of the deposited data

Results flagged for a closer look

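The interaction term tested whether the LPS effect differed between the siRNAs, and it was called for 520 genes. Among the genes named above and called, LPS moved all 3 replicate pairs down with control siRNA and all 3 up with SF3a1 siRNA for Kbtbd11 (interaction 2.90), 1700025G04Rik (2.55) and Ticam2 (1.06). The rises with SF3a1 siRNA were not called (adjusted p = 0.238, 0.187 and 0.17 from edgeR). The interaction call of Ticam2 was lost in 8 of the 12 omissions of a library. Over all called genes with more than 3 counts in every group, 29 moved down with control siRNA and up with SF3a1 siRNA, and 14 in the opposite way. In 5 of these 43 both LPS effects were called.

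Reads outside annotated genes, which no comparison used, reached 27.2% in replicate 1 of SF3a1 siRNA without LPS. The other libraries of that group were at 21.56 and 20.83%, those of SF3a1 siRNA with LPS at 18.2 to 21.37%, and those of control siRNA at 17.85 to 19.63% without and 17.75 to 19.83% with LPS. Their part in the interaction was not tested.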

How the results depend on the processing

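The number of genes called and the balance of positive and negative calls depended on the fit, while a negative interaction of LPS-induced genes and a positive one of LPS-repressed genes remained the more frequent under every setting run. Without a block 520 genes were called (230 positive, 290 negative). DESeq2 called 966 (425 and 541), with 483 blunted induced, 360 blunted repressed and 11 enhanced genes. Without a filter on low counts 930 were called (431 and 499), with 450 blunted induced, 357 blunted repressed, 15 enhanced and 141 kept genes. With the replicate block 1756 were called (980 and 776), with 675 blunted induced, 786 blunted repressed, 34 enhanced and 160 kept genes. The block lost none of the 520 calls, and beyond the genes given with it in the report it changed no other call of a named gene with a usable fold. Without replicate 1 of every group 1012 were called (554 and 458), with 461 blunted repressed, 23 enhanced and 172 kept genes, and 84.3% of LPS-induced genes had a negative interaction. RLE scaling moved no count by more than 1.5 times. With LPS-responsive genes chosen by the effect with control siRNA, which shares noise with the interaction, 94.6% of induced genes had a negative and 96.8% of repressed genes a positive interaction, and 1 gene was enhanced. With 1.5-fold as the limit 6 genes were kept.

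With 1 library left out, 273 to 711 genes were called (89 to 392 positive, 184 to 319 negative), 177 to 297 were blunted induced, 82 to 352 blunted repressed, 2 to 10 enhanced and 54 to 108 kept. The share of induced genes with a negative interaction was 83.8 to 89.4%, and that of repressed genes with a positive one 82.7 to 90.5%. The lowest counts of calls came without replicate 3 of SF3a1 siRNA without LPS (273) and the highest without replicate 1 of control siRNA with LPS (711). The remaining 2 libraries of such a group are assumed to vary like the other groups.

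None of the 56 called named genes with a usable fold changed sign; 43 stayed called with each library left out, and 51 under all other settings. Changes of sign were seen in genes near 0. Dcbld2 had -0.0090 with DESeq2 and -0.0092 with RLE scaling, and Irak1 0.011 without a filter. Without replicate 1, ENSMUSG00000048107 had 0.12, Cd300lf 0.0031 and Znrf1 0.23. With 1 library left out, ENSMUSG00000048107 ranged from -0.46 to 0.0032, Malt1 from -0.40 to 0.20, Dcbld2 from -0.25 to 0.26, Cd300lf from -0.27 to 0.071, S100a8 from -2.04 to 1.52, Tlr4 from -0.65 to 0.046, Irak1 from -0.20 to 0.13 and Rab7b from -0.13 to 0.54. On simulated counts fitted without a block, 9% of 2-fold differences in the response were called.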
